A study of Mus musculus with 6 samples.

Results

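The genes described are the integrin subunits that form receptors for fibronectin, other RGD-bearing matrix proteins and collagens: the collagen-binding alpha chains Itga1, Itga2 and Itga11, the alpha chains Itga4, Itga5, Itga8 and Itgav, and the beta chains Itgb1, Itgb5 and Itgb8. They were chosen by symbol, and all 10 were found among the 55401 rows of the count table through their Ensembl identifiers. A gene was tested where 5 or more libraries held at least 2 counts, which all 10 met, among 22318 genes in all. The integrin family had 27 genes in the table, so 17 other subunits stood beside these 10.

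Poly(A) RNA was sequenced from cultures of primary Schwann cells (SCs), the glia that ensheath peripheral axons, derived from dorsal root ganglia (DRG) of adult mice. There were 3 WT and 3 Plxnb1-/- cultures, and the question was what SCs express when they lack Plexin-B1, a receptor for semaphorins. The Plxnb1-/- allele is a gene trap (a transmembrane-lacZ-neo cassette) carried by every cell of the mouse on a C57BL/6 background, so the loss was not restricted to SCs. All 6 cultures were grown on poly-L-lysine and laminin in medium with forskolin, neuregulin and serum, depleted of fibroblasts with an antibody to Thy1, and passaged. The labels give the controls as WT, while the study's methods state that heterozygous littermates also served as controls in general. The sex of the mice is not given in the sources used here. Nothing states that replicates were separate animals, so p-values measure the spread between these cultures.

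An integrin is a pair of an alpha and a beta chain that spans the membrane. Outside the cell the pair binds matrix proteins. Inside, most pairs recruit talin and kindlin, which link them to actin at focal adhesions. Itgb1 is the common partner of most alpha chains, whereas Itgav also pairs with Itgb5 and Itgb8. In nerve, SCs use integrins to attach to and pull on the basal lamina, to sort axons and to migrate.

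No member differed between the genotypes by the main test, edgeR's quasi-likelihood test, with p-values adjusted over all tested genes (0 of 10, where 0.0358% of all tested genes were called). Without the low-count filter, edgeR called 1, Itga5. A call needed an adjusted p under 0.05 and a log2 fold change beyond 0.25 in either direction. DESeq2, the tool of the study, called 3 of the 10 in the same counts: Itga8 and Itgb8 were higher in Plxnb1-/- SCs and Itga5, the fibronectin receptor's alpha chain, was lower. DESeq2 called 1.50% of all tested genes, 0.690% as higher and 0.811% as lower. Without WT replicate 2, a library that stood apart, DESeq2 called 0 of the 10 members and 0.711% of all tested genes. Levels, in CPM (counts set relative to library size), did not overlap between the genotypes for 6 of the 10, 4 of them higher and 2 lower, as was so for 19.7% of all tested genes. Unadjusted p-values of edgeR were below 0.05 for 5 of the 10, against 13.7% of all tested genes. Itgb1 was the member with the smallest fitted difference.

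The promoters of the 3 members that DESeq2 called are shown first, since they are the DNA next to the RefSeq start of the members whose levels differed most. Each is the stretch of 250 bases before the RefSeq start site (GRCm38.p6), read 5′ to 3′ on the strand of the gene, with matches to the SP1 motif GGGCGG or its reverse complement in capitals.
Itga5, chr15:103366792-103367041, minus strand: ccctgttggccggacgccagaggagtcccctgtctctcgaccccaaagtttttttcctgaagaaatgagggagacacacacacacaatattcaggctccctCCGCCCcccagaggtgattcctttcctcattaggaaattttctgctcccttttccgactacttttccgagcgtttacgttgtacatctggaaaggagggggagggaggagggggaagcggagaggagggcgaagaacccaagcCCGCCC
Itga8, chr2:12301945-12302194, minus strand: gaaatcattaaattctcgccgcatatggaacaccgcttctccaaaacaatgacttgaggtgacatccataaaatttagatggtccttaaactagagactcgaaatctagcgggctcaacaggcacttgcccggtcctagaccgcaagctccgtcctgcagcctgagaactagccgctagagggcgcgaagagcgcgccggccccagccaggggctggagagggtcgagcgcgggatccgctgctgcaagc
Itgb8, chr12:119238277-119238526, minus strand: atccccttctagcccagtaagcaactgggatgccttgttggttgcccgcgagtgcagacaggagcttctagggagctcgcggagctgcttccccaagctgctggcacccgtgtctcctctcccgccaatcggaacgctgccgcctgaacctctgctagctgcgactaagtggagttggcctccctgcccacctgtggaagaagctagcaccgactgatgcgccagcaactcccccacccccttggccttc

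All 10 members had a promoter in the RefSeq table. That of Itga5 held 2 SP1 matches, while those of Itga8 and Itgb8 held none. Of 32851 promoters of this length, 32.7% held at least 1. None of the 3 sequences held a TATA box (TATAAA, 12.4% of all promoters), a TEAD motif (GGAATG, 12.6%), an AP-1 motif (TGANTCA, 6.75%), a SOX motif (ACAAAG, 16.5%) or an SRF CArG box (1.47%), searched on both strands. GC content was 55.6% for Itga5, 56.4% for Itga8 and 62.4% for Itgb8, and the median over all promoters was 52.4%. The Itga8 promoter held 18 CpG dinucleotides, the Itga5 promoter 11 and the Itgb8 promoter 12, against a median of 6. The motifs were picked after the values were known, and a match describes these letters only. The stretch of Itgb8 lies inside the span that the GENCODE annotation gives for that gene, so the annotations place its start differently.

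Libraries held between 59252048 and 77280964 counts, and 3 counts, taken as the floor of detection, correspond to 0.0383 to 0.0513 CPM, for counting error only. The targeted gene, Plxnb1, stood at 61.8 (replicate 1), 45.4 (replicate 2) and 96.4 CPM (replicate 3) in WT, and at 13.1, 16.6 and 18.6 CPM in the Plxnb1-/- libraries in the same order (adjusted p = 0.0449, edgeR). It was lower in every Plxnb1-/- library, as the labels say, and some RNA over its exons remained. The paper reports from its read tracks that exons past the inserted cassette lost expression, while the counts here cover all exons together. WT replicate 2 stood apart, with a score of -47.4 on the first principal component against -7.52 to 34.0 in the other 5 libraries. It was the lowest or the highest of the 6 libraries for 9 of the 10 members (lowest for 6, highest for 3), against 52.2% of all tested genes. Plxnb1-/- replicate 3 was so for 7 members, against 39.0% of all tested genes. For the members, values without them are given below where they differ by over 1.5 times or change a call, and for other named genes in part.

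The SC markers Sox10, a transcription factor of the lineage, and S100b, a calcium-binding protein, were present in all libraries, Sox10 at 432.4 to 579.9 CPM and S100b at only 7.09 to 8.22 CPM. Summed over 14 SC markers, the level was 4047.9 to 4698.3 CPM in WT and 4725.7 to 5234.2 CPM in Plxnb1-/-, with 12 of the 14 fitted higher and none called by either tool. Ngfr, a neurotrophin receptor, had the largest fitted rise (log2 fold change 0.30) and Egr1, an immediate early gene, the largest fitted fall (-0.18, but -0.06 without WT replicate 2). Summed over 12 fibroblast markers, of which Tcf21 stayed at or below 3 counts in every library, it was 16850.1 to 20820.4 CPM in WT, highest in replicate 2, and 15347.4 to 16119.9 CPM in Plxnb1-/-, with 10 of 11 tested genes fitted lower. Without the 3 collagens of that list the sum was 919.2 to 1364.9 CPM in WT and 893.8 to 934.1 CPM in Plxnb1-/-. Thy1, the target of the depletion, was still at 383.7 to 651.6 CPM. The sum of 12 mural cell markers was 2299.3 to 3006.7 CPM in WT and 2082.2 to 2214.7 CPM in Plxnb1-/-, and DESeq2 called Acta2 and Cnn1, both of the contractile apparatus, lower. Macrophage markers summed to 110.3 to 134.0 CPM in WT and 145.4 to 158.7 CPM in Plxnb1-/-, with 10 of 10 fitted higher and Lyz2 and Cx3cr1 called higher by DESeq2. The 8 endothelial markers (80.6 to 104.1 and 84.3 to 90.6 CPM) and the 10 neuronal markers (19.3 to 23.7 and 23.2 to 35.6 CPM) overlapped between the genotypes. Fewer cells of a type and less RNA per cell cannot be told apart in bulk RNA, and the part of these cells in the integrin values was not tested.

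**Figure D1:**
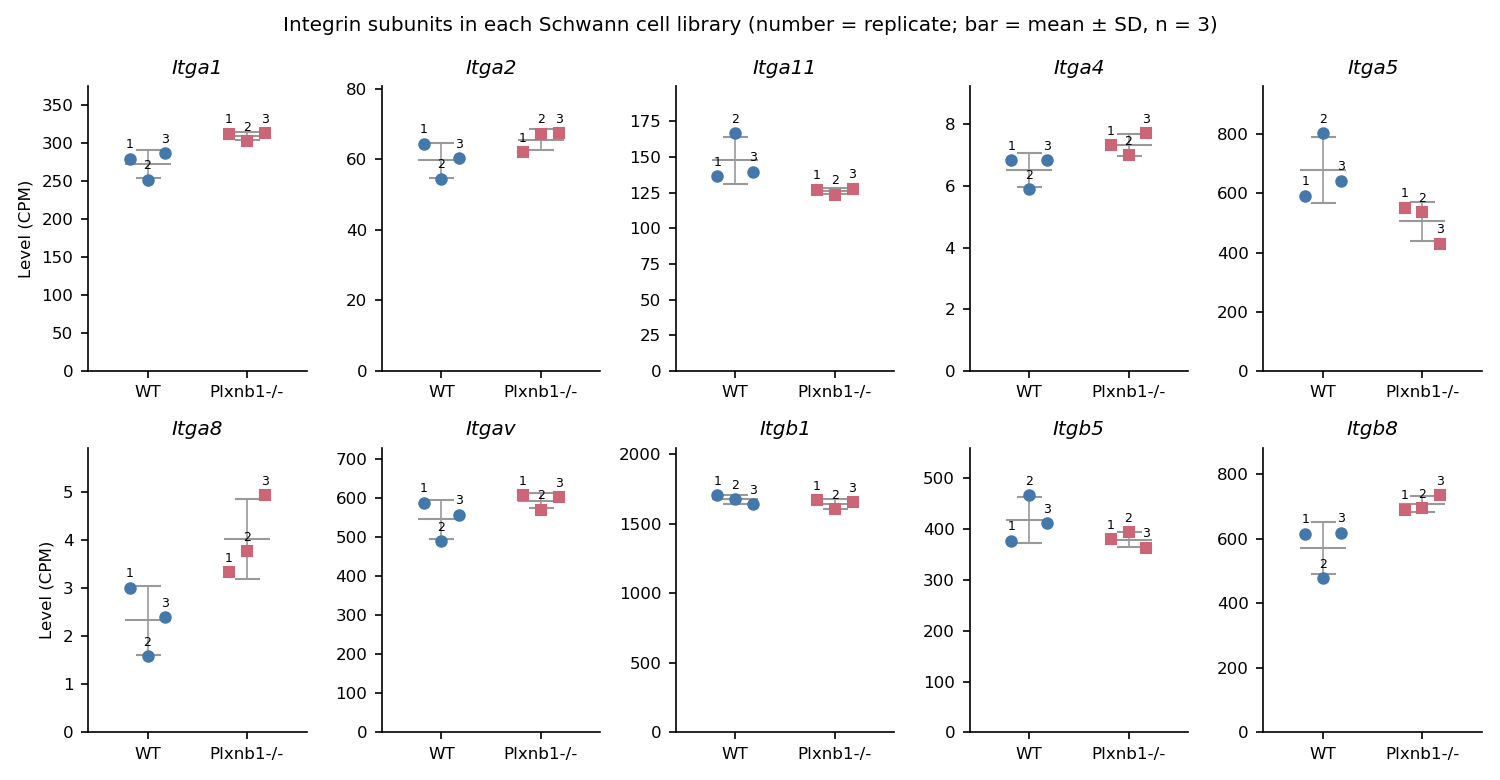
Level of each integrin subunit in CPM (vertical axis, from 0) in the 3 WT and 3 Plxnb1-/- libraries, each point labelled by its replicate number, with the mean and SD. WT replicate 2 is the lowest or the highest point in 9 of the 10 panels, and Itgb1 is nearly level across all 6 libraries.

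The collagen receptors came first. Itga1, the alpha chain of a receptor that favors collagen IV of basement membranes (chr13:114953096-115101964 on GRCm38), was 278.9, 251.1 and 286.5 CPM in WT and 311.9, 302.3 and 312.1 CPM in Plxnb1-/-, here and below in the order of the replicate numbers. All Plxnb1-/- libraries lay above all WT libraries. The mean was 272.2 ± 18.6 CPM in WT and 308.8 ± 5.60 CPM in Plxnb1-/- (SD, n = 3), a log2 fold change of 0.18 ± 0.054 (SE) that did not pass the test (adjusted p = 0.284, edgeR; 0.101, DESeq2). It was 0.12 without both outer libraries, and a protein-coding gene on the same strand overlaps 3.68% of its exons.

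Itga2, whose receptor favors fibrillar collagen and also binds laminin, lies on the same strand just beside Itga1, with a gap of 21.0 kb between them (chr13:114833081-114932100). It was 64.5, 54.5 and 60.3 CPM in WT and 62.1, 67.3 and 67.4 CPM in Plxnb1-/-. The groups overlapped, since WT replicate 1 exceeded Plxnb1-/- replicate 1. Its log2 fold change was 0.13 ± 0.065 (adjusted p = 0.398, edgeR), and 0.08 without WT replicate 2 and 0.05 without both outer libraries.

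Itga11, the alpha chain of a receptor for fibrillar collagens known from fibroblasts, pointed the other way (chr9:62677826-62783982, on the chromosome of Plxnb1 but 46.3 Mb from it). It was 136.6, 166.5 and 139.8 CPM in WT and 127.2, 123.5 and 127.9 CPM in Plxnb1-/-. Every Plxnb1-/- library was below every WT library, and WT replicate 2 was the highest. The log2 fold change was -0.23 ± 0.072 (adjusted p = 0.289, edgeR, and 0.106, DESeq2). It was -0.13 without WT replicate 2 and -0.14 without both outer libraries. Per kilobase of exon, Itga1 stood at 0.563, 0.416 and 0.565 of Itga11 in WT and at 0.676, 0.675 and 0.673 in Plxnb1-/-, a ratio that did not overlap between the genotypes. The 3 Plxnb1-/- ratios were close together (SD 0.00166), and the lowest ratio was that of WT replicate 2.

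Among the fibronectin and RGD receptors, Itga5 had the lowest ratio between the genotypes. Itga5, the chain that with Itgb1 makes the classical fibronectin receptor (chr15:103344286-103366763), was 591.5, 802.5 and 642.8 CPM in WT and 551.5, 537.0 and 430.5 CPM in Plxnb1-/-. All WT libraries were higher than all Plxnb1-/- libraries, with WT replicate 2 at the top and Plxnb1-/- replicate 3 at the bottom. The mean was 679.0 ± 110.0 CPM in WT and 506.3 ± 66.0 CPM in Plxnb1-/- (SD, n = 3), a ratio of 0.746. The log2 fold change of -0.42 ± 0.12 was called by DESeq2 (adjusted p = 0.0225) and not by edgeR (adjusted p = 0.273), although edgeR called it with no filter on low counts (adjusted p = 0.0383). It was -0.28 without WT replicate 2 and -0.18 without both outer libraries, WT replicate 2 and Plxnb1-/- replicate 3. DESeq2's adjusted p was 0.593 without WT replicate 2 and 0.356 without both.

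Itga8, which with Itgb1 binds nephronectin, fibronectin and other RGD proteins (chr2:12106632-12301922), had the largest fitted difference and the lowest level. It was 3.02, 1.59 and 2.401 CPM in WT and 3.34, 3.78 and 4.95 CPM in Plxnb1-/-, from 93 to 343 counts a library. The groups did not overlap, although WT replicate 1 lay close to Plxnb1-/- replicate 1. The ratio of means was 1.72, and the log2 fold change of 0.78 ± 0.23 was called by DESeq2 (adjusted p = 0.0305) and not by edgeR (adjusted p = 0.275). It was 0.57 without WT replicate 2 and 0.40 without both outer libraries, and DESeq2 no longer called it without WT replicate 2 (adjusted p = 0.199). An antisense gene covers 5.05% of its exons, and the strand setting of the counting is not given in the sources used here.

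Itgav, the alpha chain shared by receptors for vitronectin and latent TGF-beta (chr2:83724397-83806916), was 588.0, 488.9 and 557.2 CPM in WT and 607.3, 569.9 and 601.8 CPM in Plxnb1-/-. The groups overlapped, with WT replicate 2 lowest. The log2 fold change was 0.12 ± 0.067 (adjusted p = 0.452 with all libraries, edgeR). It was 0.05 without WT replicate 2 and 0.04 without both outer libraries. A transcript on the other strand overlaps 5.90% of its exons. Per kilobase of exon, Itga5 exceeded Itgav by 2.19, 3.58 and 2.51 times in WT and by 1.98, 2.05 and 1.56 times in Plxnb1-/-. The ratio did not overlap between the genotypes, but WT replicate 1 and Plxnb1-/- replicate 2 were close to each other.

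Itga4, which binds an alternatively spliced region of fibronectin and the adhesion molecule Vcam1 (chr2:79255426-79333123), was 6.83, 5.89 and 6.84 CPM in WT and 7.32, 6.995 and 7.70 CPM in Plxnb1-/-. The groups did not overlap. The difference was small (log2 fold change 0.17 ± 0.089, adjusted p = 0.432, edgeR), at 0.11 without WT replicate 2 and 0.07 without both outer libraries, and 8.04% of its exons lie over a gene on the other strand, Cerkl.

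The beta chains differed least where they are most shared. Itgb1, the partner of all the alpha chains above (chr8:128685654-128733200), was 1705.4, 1676.7 and 1639.4 CPM in WT and 1669.4, 1602.3 and 1654.0 CPM in Plxnb1-/-. The groups overlapped, and the coefficient of variation was 1.98% in WT and 2.14% in Plxnb1-/-. Its log2 fold change was -0.03 ± 0.041 (adjusted p = 0.809, edgeR) and stayed between -0.04 and -0.01 under all alternatives.

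Itgb8, which with Itgav binds latent TGF-beta and takes part in its activation (chr12:119158022-119238802), was 615.2, 477.5 and 618.7 CPM in WT and 690.4, 694.2 and 735.5 CPM in Plxnb1-/-. All Plxnb1-/- libraries were above all WT libraries. The mean was 570.5 ± 80.6 CPM in WT and 706.7 ± 25.01 CPM in Plxnb1-/- (SD, n = 3), a ratio of 1.24. The log2 fold change of 0.31 ± 0.091 was called by DESeq2 (adjusted p = 0.0451) and not by edgeR (adjusted p = 0.283). It was 0.20 without WT replicate 2 and 0.17 without both outer libraries. Without WT replicate 2, DESeq2 gave an adjusted p of 0.0100, but the fold change was inside the cutoff.

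Itgb5, a beta chain that with Itgav binds vitronectin (chr16:33829665-33949338), had the opposite sign. It was 376.8, 466.6 and 410.8 CPM in WT and 379.6, 393.8 and 363.1 CPM in Plxnb1-/-, with the groups overlapping and WT replicate 2 highest. The log2 fold change of -0.14 ± 0.074 (adjusted p = 0.431, edgeR) was -0.05 without WT replicate 2 and -0.03 without both outer libraries. Per kilobase of exon, Itgb8 was 0.525, 0.329 and 0.484 of Itgb5 in WT and 0.584, 0.566 and 0.651 in Plxnb1-/-. The 3 Plxnb1-/- ratios lay above the 3 WT ratios, of which that of replicate 2 was the lowest.

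**Figure D2:**
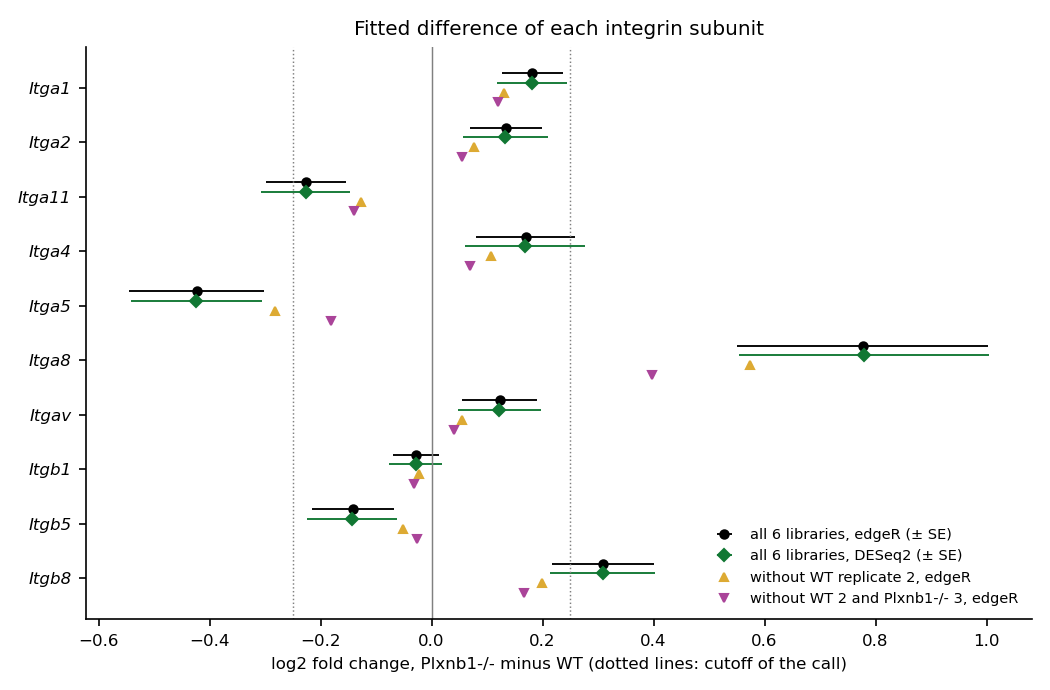
Log2 fold change of each subunit, Plxnb1-/- minus WT (horizontal axis), from edgeR and DESeq2 with all 6 libraries (bars are SE), and from edgeR without WT replicate 2 and without WT replicate 2 and Plxnb1-/- replicate 3. Itga8, Itgb8 and Itga5 pass the dotted cutoff of 0.25 with all libraries, Itgb8 falls inside it once WT replicate 2 is left out, and Itga5 falls inside it once both libraries are left out.

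Across the 10 members, 6 were fitted higher and 4 lower, and the median log2 fold change was 0.13, against 0.00 over all tested genes. The median of the members was 0.07 without WT replicate 2 and 0.05 without both outer libraries. No member changed sign when any library was left out. The lowest adjusted p of any member in these edgeR fits was 0.125. Leaving out WT replicate 1, 2 or 3 left 9, 6 and 7 members with no overlap (35.0%, 25.9% and 30.8% of all tested genes). Leaving out Plxnb1-/- replicate 1, 2 or 3 left 7, 7 and 6 (33.7%, 30.9% and 26.1%), and leaving out both outer libraries left 6 (35.2%). The 6 members with all libraries were Itga1, Itga4, Itga8 and Itgb8 (higher) and Itga5 and Itga11 (lower), where 9.30% of all tested genes did not overlap and were higher and 10.4% did not overlap and were lower.

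Levels were then set side by side per kilobase of merged exons (CPM per kb), since CPM alone favors long transcripts. Itgb1 led at 410.2 ± 8.11 CPM per kb in WT and 402.3 ± 8.61 in Plxnb1-/- (SD, n = 3). In WT it was followed by Itga5 (137.6 ± 22.3) and Itgb5 (117.7 ± 12.8), which overlapped each other. Next came Itgb8 (51.6 ± 7.28) and Itgav (50.7 ± 4.72), which also overlapped, and then Itga11 (28.8 ± 3.20), Itga1 (14.6 ± 1.00) and Itga2 (8.38 ± 0.701). Itga4 (0.466 ± 0.0387) and Itga8 (0.317 ± 0.0972) were the rarest.

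In Plxnb1-/- SCs the order was Itgb1, Itgb5 (106.6 ± 4.33), Itga5 (102.6 ± 13.4), Itgb8 (63.9 ± 2.26), Itgav (55.2 ± 1.88), Itga11 (24.6 ± 0.464), Itga1 (16.6 ± 0.301), Itga2 (9.19 ± 0.426), Itga8 (0.546 ± 0.113) and Itga4 (0.525 ± 0.0254). Itgb5 overlapped Itga5, and Itga8 overlapped Itga4. The places of Itga5 and Itgb5 and those of Itga4 and Itga8 were thus exchanged between the genotypes, among neighbours that overlapped in at least 1 genotype. With the length of a single transcript in place of merged exons, Itgav passed Itgb8 in WT, and in Plxnb1-/- Itga1 passed Itga11 and Itga4 passed Itga8, so the order of these neighbours depends on the gene model.

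**Figure D3:**
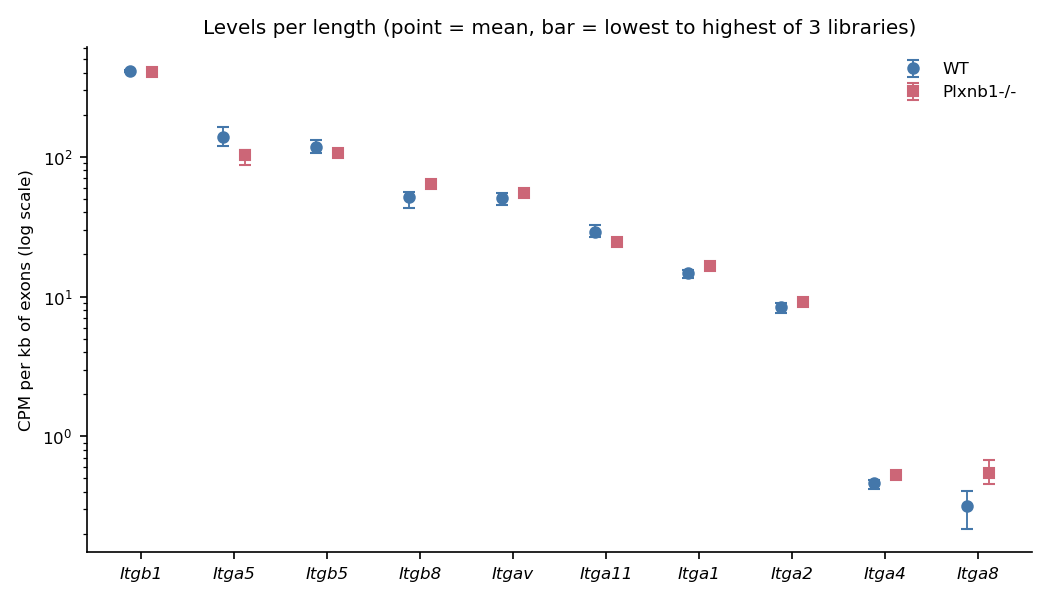
Level of each subunit in CPM per kb of merged exons (vertical axis, log scale) in WT and Plxnb1-/- SCs, as the mean with a bar from the lowest to the highest of 3 libraries. Itgb1 stands above all others, and Itga4 and Itga8 lie below 1 CPM per kb.

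The sum of the 7 alpha chains was 0.541, 0.639 and 0.583 of the Itgb1 level in WT and 0.537, 0.542 and 0.483 in Plxnb1-/-, per kilobase. These values overlapped, and so did those with 5 further partners of Itgb1 added (Itga3, Itga6, Itga7, Itga9 and Itga10), which averaged 0.876 ± 0.0219 in WT and 0.865 ± 0.0312 in Plxnb1-/- (SD, n = 3). The share of Itga5 among the 7 alpha chains was 53.0%, 62.0% and 55.7% in WT and 50.9%, 51.2% and 44.6% in Plxnb1-/-, without overlap. The share of Itgb8 in the sum of Itgb5 and Itgb8 was 34.4%, 24.7% and 32.6% in WT and 36.9%, 36.2% and 39.4% in Plxnb1-/-, again without overlap. That sum leaves out Itgb3, another partner of Itgav, which stood at 44.9 ± 0.847 CPM per kb in WT and 41.8 ± 1.53 in Plxnb1-/-. These ratios compare RNA only, were formed after the levels were known, and carry no test.

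**Figure D4:**
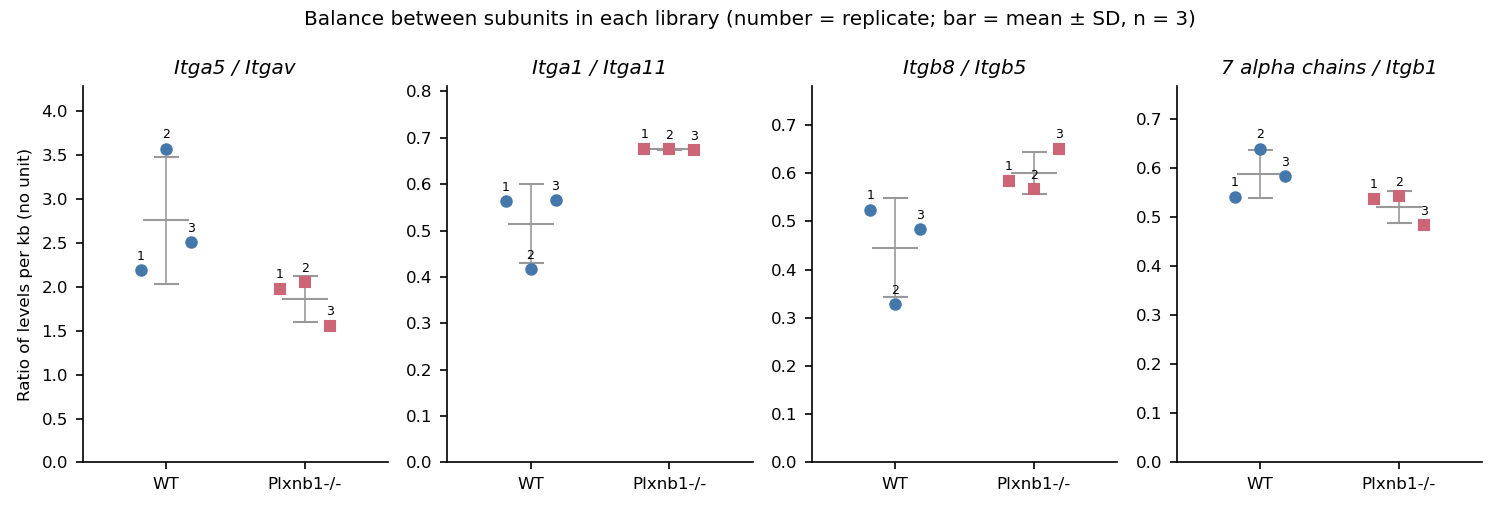
Ratios of levels per kb (vertical axes, from 0) in each library, labelled by replicate number, with the mean and SD. Itga5 over Itgav, Itga1 over Itga11 and Itgb8 over Itgb5 separate the genotypes, with WT replicate 2 the most distant library in each, and the summed alpha chains over Itgb1 overlap.

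Of the 17 other integrin subunits, 14 were tested, 11 of them were fitted higher and 3 lower, with a median log2 fold change of 0.19. By edgeR none was called, with 4 higher and 1 lower at unadjusted p below 0.05, against 13.7% of all tested genes in either direction. Once the low-count filter was dropped, edgeR called 2, where it called 296 of 31191 genes in all. DESeq2 called the same 2, Itgb4 and Itgal, both higher, where it called 0.690% of all tested genes higher. It called both without WT replicate 2 as well, 0 without Plxnb1-/- replicate 2 or without both outer libraries, and 1 without Plxnb1-/- replicate 3 or WT replicate 3. Without WT replicate 1 it called 4 of these subunits, and 946 of 22710 genes in all. Itgb4, which with Itga6 binds laminin in myelinating SCs, was 107.8, 88.5 and 103.6 CPM in WT and 117.7, 130.0 and 152.8 CPM in Plxnb1-/- (log2 fold change 0.42 ± 0.10, adjusted p = 0.00706, DESeq2). Itgal, an alpha chain of leukocytes, was 1.55, 1.20 and 1.20 CPM in WT and 2.43, 2.84 and 2.02 CPM in Plxnb1-/- (0.89 ± 0.17, adjusted p = 0.0039, DESeq2). Neither gene overlapped between the genotypes, as was so for 19.7% of all tested genes. The sum of the macrophage markers given above was higher as well. Itgb2, the partner of Itgal, overlapped between the genotypes (log2 fold change 0.17, adjusted p = 0.638, edgeR). So did the leukocyte chains Itgax and Itgam, the latter also on the macrophage list. Without both outer libraries, the log2 fold change in edgeR was 0.23 for Itgb4, inside the cutoff, and 0.94 for Itgal.

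The matrix proteins that these receptors bind were mostly fitted lower. Of 32, all tested, 25 were fitted lower and 7 higher, with a median log2 fold change of -0.22. By edgeR 18 were lower and 1 higher at unadjusted p below 0.05, against 13.7% of all tested genes in either direction. None was called after adjustment, whereas edgeR with no filter on low counts called 6, all lower. DESeq2 called 7, all lower and those 6 among them, where it called 0.811% of all tested genes lower. It called 3 without WT replicate 2, 0 without Plxnb1-/- replicate 3 and 1 without both outer libraries. Without WT replicate 1 it called 14 of the ligands, and 946 of 22710 genes in all. The median was -0.13 without WT replicate 2 and -0.09 without both. Fn1, the fibronectin gene and ligand of Itga5, was 7441.7, 9691.6 and 7998.2 CPM in WT and 6652.3, 7199.1 and 6482.4 CPM in Plxnb1-/- (log2 fold change -0.31 ± 0.091, adjusted p = 0.0452, DESeq2). As for Itga5, the WT libraries were all higher and replicate 2 was the highest. Without that library the log2 fold change of Fn1 was -0.18, and without both outer libraries -0.16.

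The other 6 were Col1a1 (log2 fold change -0.30), which makes a chain of collagen I, Col6a1 (-0.33), Col6a2 (-0.42) and Col6a3 (-0.41), the chains of collagen VI, Tnc (-0.28), the tenascin-C gene, and Tgfb3 (-0.33), a latent growth factor held by Itgav receptors. Their genotypes did not overlap, where 10.4% of all tested genes did not overlap and were lower. Without WT replicate 2, Col1a1 (-0.19), Col6a1 (-0.249), Tnc (-0.24) and Tgfb3 (-0.23) were inside the cutoff of 0.25 in edgeR, and Col6a2 and Col6a3 (both -0.32) were beyond it. Without both outer libraries, Col6a2 was -0.267 and Col6a3 -0.255, close to the cutoff. The list holds 3 of the fibroblast markers whose sum is given above, Col1a1, Col1a2 and Col3a1, so that sum is not separate from these ligands. Without these 3 collagens the sum overlapped between the genotypes, at 919.2 to 1364.9 CPM in WT and 893.8 to 934.1 CPM in Plxnb1-/-. Laminin was also in the coating of the cultures, and the laminin chains listed were not called in either direction with all libraries.

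Inside the cell and beside the receptor, DESeq2 called 6.45% of the activators and adaptors, 4.35% of the genes for inactivation and trafficking and 11.1% of the membrane partners, against 1.50% of all tested genes. These shares rest on 2, 1 and 2 called genes only. Of 31 tested activators and adaptors, 12 were fitted higher and 19 lower (median -0.05). DESeq2 called Ptk2b, a kinase related to FAK (-0.49), and Actn1, an actin crosslinker of focal adhesions (-0.42), both lower. In edgeR, Ptk2b was -0.33 and Actn1 -0.28 without WT replicate 2. Without both outer libraries, Ptk2b was -0.21 and Actn1 -0.23, inside the cutoff. The genes that switch integrins on, Tln1 and Fermt2, had log2 fold changes of 0.00 and -0.07. Of 23 tested genes for inactivation and trafficking, 9 were fitted higher and 14 lower (median -0.03). DESeq2 called Slc4a8 alone, an exchanger for bicarbonate, higher (0.43). The 4.35% given for this list thus rests on an ion exchanger, and no other gene of the list was called. Of 18 membrane partners, 9 were higher and 9 lower (median -0.01), with Sdc4, a syndecan that assists the fibronectin receptor, higher (0.29) and Plaur, the urokinase receptor, lower (-0.30) by DESeq2. Without WT replicate 2, DESeq2 called 1 of the activators and adaptors, 0 of the inactivation genes and 1 of the membrane partners. Without Plxnb1-/- replicate 3, or without both outer libraries, it called 0 in each of these lists. By edgeR no gene of them was called, where adjusted p-values began at 0.255, but without the low-count filter it called the same 2, 1 and 2 genes as DESeq2. At unadjusted p below 0.05, edgeR had 1 higher and 7 lower among the activators and adaptors, 1 and 2 among the inactivation genes and 4 and 2 among the membrane partners. The share over all tested genes was 13.7% in either direction.

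**Figure D5:**
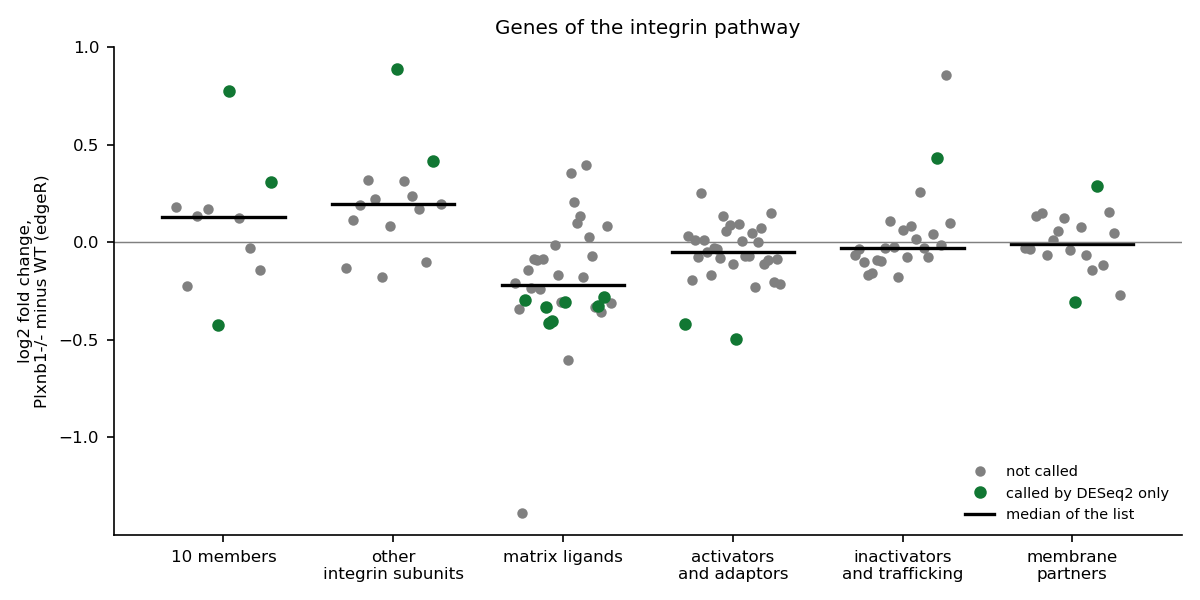
Log2 fold change by edgeR, Plxnb1-/- minus WT (vertical axis), of every tested gene in 6 lists, with the median of each list as a line and the genes that DESeq2 alone called in green. Of the 10 members 6 lie above 0, as do 11 of 14 other subunits, and 25 of 32 matrix ligands lie below. The remaining lists have medians of -0.05, -0.03 and -0.01.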

How the data were processed

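Poly(A) RNA of 6 SC cultures was sequenced with a stranded kit. The authors trimmed reads with Trim Galore 0.6.5, aligned them to mm10 with Bowtie2 2.4.1, which does not span introns, removed duplicates with SAMtools 1.10 and counted reads on exons with featureCounts. The deposited counts are raw. The deposited FPKM values divide by the whole span of a gene, introns included, so levels were computed here from counts, and FPKM served as an alternative only.

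Symbols, coordinates and exon lengths came from GENCODE vM21 (GRCm38), older than the release the authors used, and 55141 of 55401 rows matched. Counts were tested in R 4.3.3 with edgeR 4.0.16 (TMM, quasi-likelihood, genotype only, Benjamini-Hochberg over 22318 genes), after a check on simulated data. DESeq2 1.42.0 and limma 3.58.1 gave alternatives. CPM uses TMM library sizes. The chi-square per degree of freedom between replicates was 7.38 to 29.0, so no libraries were duplicates.

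The named genes are all members, Plxnb1, and, from each other list, the genes either tool called, or the largest fitted rise and fall where none was. Tln1, Fermt2, Sox10, S100b, Thy1, Itgb3, Itgb2, Itgam and Itgax were added after their values were seen. Members and lists were chosen with earlier results of these data known. Protein sequences were not used here.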

Additional observations from a re-analysis of the deposited data

How the results depend on the processing

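The log2 fold changes of the 10 members were recomputed under 25 alternatives, which gave 250 values. Of these, 239 kept their direction and their side of the threshold, 11 gained a call and none reversed. In all, 3 members were called under DESeq2, 1 (Itga5) in edgeR with no filter on low counts, and 0 under every other alternative with all libraries. DESeq2 with libraries left out was added after seeing the data. It called 0 to 4 members with each library left out in turn, 0 without WT replicate 2, Plxnb1-/- replicate 2 or Plxnb1-/- replicate 3, and 4 without WT replicate 1, where Itga11 was called lower as well. Called genes over the whole table numbered 8, and 335 under DESeq2, 296 with no filter, 33 with WT replicate 2 and Plxnb1-/- replicate 3 left out together, 13 with limma voom and sample weights, 5 with the stricter filter (1 CPM in 3 libraries), and 3 with limma on log2(FPKM + 0.1) and 3 on log2(FPKM + 1). Leaving out each library in turn gave 4 to 25 called genes with edgeR, 25 of them without WT replicate 2, and with DESeq2 946, 162 and 219 without WT replicate 1, 2 and 3, 281, 124 and 51 without Plxnb1-/- replicate 1, 2 and 3, and 52 without both outer libraries. The cause was not tested. Plxnb1 stayed lower throughout but was not called in 8 of 25 alternatives. Each library left out in turn gave 6 to 9 members that did not overlap, a count added after seeing the data, and fewer libraries leave less room to overlap. Same-numbered libraries deviated from their group means with correlations of -0.02, 0.01 and 0.07. These give no clear sign of pairing by number, but 3 libraries per genotype cannot exclude it. The replicate block called 5 genes and 0 members. With no filter, edgeR also called 2 other integrin subunits, 6 matrix ligands, 2 activators and adaptors, 1 inactivation gene and 2 membrane partners. Itga8 rests on 93 to 343 counts a library, and its log2 fold change shrank to 0.11 on log2(FPKM + 0.1) and 0.01 on log2(FPKM + 1), scales that understate changes of low genes.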
